A study of Mus musculus with 3 samples.

Results

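The S100 genes encode small calcium-binding proteins, and 8 of the 32287 features of the tables were followed here across lung cell classes: S100a1, S100a4, S100a6, S100a8, S100a9, S100a10, S100a11 and S100g. Each was read as raw UMIs (unique molecular identifiers, counts of captured RNA molecules) in cell barcodes with 500 or more genes and at most 15% mitochondrial UMIs. The mice were Scgb1a1-CreER;Sftpc-DreER;R26-TLR, in which recombinases under the control of the club cell gene Scgb1a1 and the alveolar type 2 (AT2) cell gene Sftpc switch on a red and a green reporter. All mice had received bleomycin, which injures the alveolar epithelium, 4 weeks earlier, and no uninjured group is compared here. Whole lungs were digested with protease and sorted: red cells gave the Club-Tracer library, doubly marked cells the BASC-Tracer library and green cells the AT2-Tracer library. Values in groups of 3 are given in this order throughout. There was 1 library per lineage, so no test between libraries was possible and their differences were not checked on replicates. The sources used here do not give the number of animals in a library or their age.

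The libraries held 3196, 1402 and 5859 kept barcodes, with median depths of 15406, 15221.5 and 9682 UMIs. The deposited totals were 62570890, 29013077 and 72256580 UMIs. Classes were gated by summed UMIs of marker lists that hold none of the 8 genes, and 10 classes reached 50 barcodes in at least 1 library, giving 19 sums of barcodes by library and class. The AT2 gate held 411, 431 and 1759 barcodes, the alveolar type 1 (AT1) gate 67, 88 and 743, and the transitional gate (Krt8, Cldn4, Krt19 and others) 144, 69 and 470. The club gate held 1016 Club-Tracer and 154 BASC-Tracer barcodes and the ciliated gate 367 and 59; paired airway values below are in this order. The basal gate (116 barcodes) and the upper airway secretory gate (118) were filled in the Club-Tracer library alone. Although the libraries are labelled epithelial, 844 AT2-Tracer barcodes passed the alveolar macrophage gate, 758 passed the C1q macrophage gate and 60 the dendritic gate, and 90 BASC-Tracer barcodes passed the C1q macrophage gate. Neutrophil and endothelial gates took at most 4 and 12 barcodes in any library. A gate is a cut through a range: 362 kept barcodes of the AT2-Tracer library lay less than 1.25 times above or below the AT2 cut-off of 500 list UMIs per 10000, and 358 lay as near to the transitional cut-off of 80. Pairs of libraries shared 6 to 23 barcode sequences.

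Most S100 proteins form dimers that change shape when calcium binds and then grip target proteins. S100a10 no longer responds to calcium and stays bound to annexin A2 at membranes, while S100a11 and S100a6 bind annexins when calcium rises. S100a8 and S100a9 pair as calprotectin, a major product of neutrophils. S100g, also called calbindin-D9k, is a monomeric cytosolic calcium buffer of absorptive epithelia, S100a1 is best known from heart muscle, and S100a4 from motile cells and leukocytes. In the GENCODE M21 annotation of build GRCm38, 7 of the 8 protein-coding genes lie on chromosome 3. S100a1, S100a4, S100a6, S100a8 and S100a9 lie within 184.688 kb and S100a11 and S100a10 follow after a gap of 2.825 Mb, while S100g lies on chromosome X. S100a4 overlaps the predicted gene Gm42674 on the same strand and S100g overlaps Ctps2 on the other strand. How reads in these overlaps were counted was not tested.

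Levels are CPM, the gene's UMIs per 1000000 UMIs of a sum, and intervals are exact 95% Poisson intervals. They cover counting error only and leave out variation between cells and between animals. By the mean over libraries, the transitional gate led for S100a6 and S100a10 and the ciliated gate for S100a1 and S100a11. For S100a10 this order did not hold within the Club-Tracer library, where the basal gate (755 CPM) stood above the transitional gate (611 CPM). The transitional gate also led for S100a9, but through 2 AT2-Tracer barcodes alone, with 0 UMIs in that gate of the other libraries. S100a4 was highest in the dendritic, S100a8 in the alveolar macrophage and S100g in the AT2 gate, as the plot of CPM by gate shows.

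**Figure D1:**
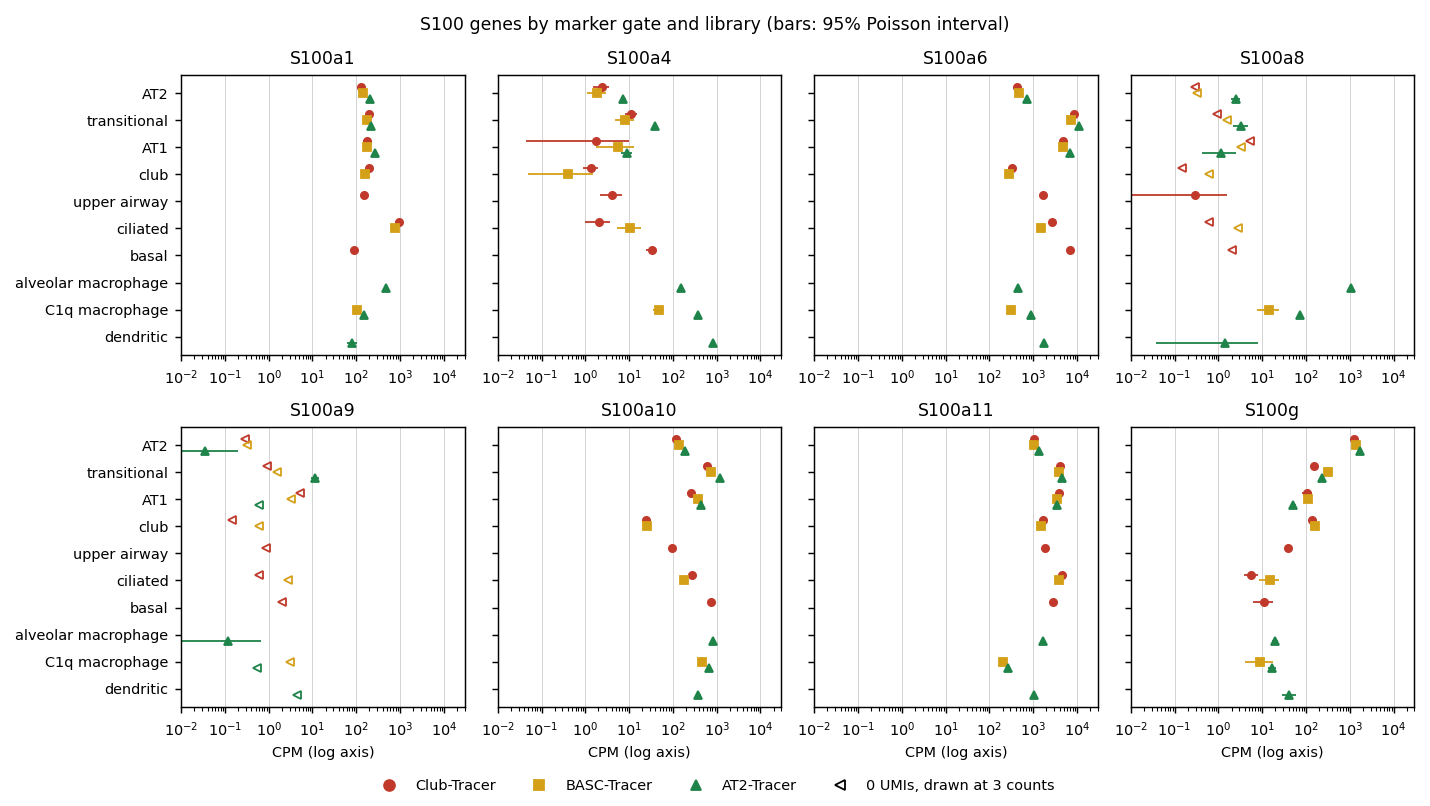
CPM (log axis) of each S100 gene in 10 marker gates, with a point for each library and bars for the 95% Poisson interval; open triangles mark 0 UMIs, drawn at the level of 3 counts. S100a6 peaks in the transitional gate (7435 to 11174 CPM), S100g in the AT2 gate (1226 to 1722 CPM), S100a1 in the ciliated gate (768 and 973 CPM) and S100a8 in the alveolar macrophage gate (1064 CPM).

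The annexin-binding members S100a6, S100a10 and S100a11 were higher in the transitional gate than in the AT2 gate in every library. S100a6, also called calcyclin, stood at 422, 477 and 734 CPM in the AT2 gate. In the transitional gate it stood at 8519, 7435 and 11174 CPM. The lowest transitional value was above the highest AT2 value, and the ratios within a library were 20.2 (95% interval 19.5 to 20.8), 15.6 (15.1 to 16.1) and 15.2.

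S100a10 stood at 120, 135 and 195 CPM in the AT2 gate and at 611, 728 and 1217 CPM in the transitional gate. S100a11 stood at 1055, 1072 and 1335 CPM in the AT2 gate and at 4112, 3857 and 4478 CPM in the transitional gate. The ranges of the gates did not overlap for either gene, with ratios of 5.08, 5.39 and 6.26 for S100a10 and of 3.90, 3.60 and 3.35 for S100a11. S100g was the opposite case, 7.98-, 4.49- and 7.39-fold lower in the transitional gate (12.1-, 6.52- and 9.43-fold without the highest barcodes). S100a1 differed little, with ratios of 1.49, 1.21 and 1.04.

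Differences were counted where a gene reached 50 CPM in either sum and was at least 2-fold apart on log2((CPM + 5)/(CPM + 5)), in the same direction in every library with both classes. This is a size and not a test. A gene that reached 50 CPM in only 1 of the sums compared could be counted only as higher there, for members and all genes alike. Where "without the highest barcodes" is written, the barcode with most UMIs of the gene was left out of each sum, an alternative chosen after seeing the data. Of the 5 members counted between the transitional and AT2 gates, 3 were higher in the transitional gate and 1 was lower. Among all 3076 genes counted there, 10.0% were higher and 4.52% lower. The median log2 ratio was 1.85 over the 5 members and 0.36 over all genes.

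The AT1 gate, the flat cells of gas exchange, gave the same 3 members above the AT2 gate. S100a6 was at 4874, 4758 and 6783 CPM there, S100a11 at 3929, 3452 and 3456 CPM and S100a10 at 255, 380 and 435 CPM. Their ratios to the AT2 gate were 11.5, 9.97 and 9.24 for S100a6, 3.72, 3.22 and 2.59 for S100a11 and 2.12, 2.81 and 2.24 for S100a10. Again 3 of 5 members were higher and 1, S100g, was lower, against 13.3% higher and 3.66% lower among 3114 genes. The 2-fold difference of S100a10 was not kept in every library under 4 of the other settings: it came to 0.85 and 0.94 (log2) in the Club-Tracer and AT2-Tracer libraries when secretoglobins, surfactant proteins and mitochondrial genes were left out of the scaling.

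**Figure D2:**
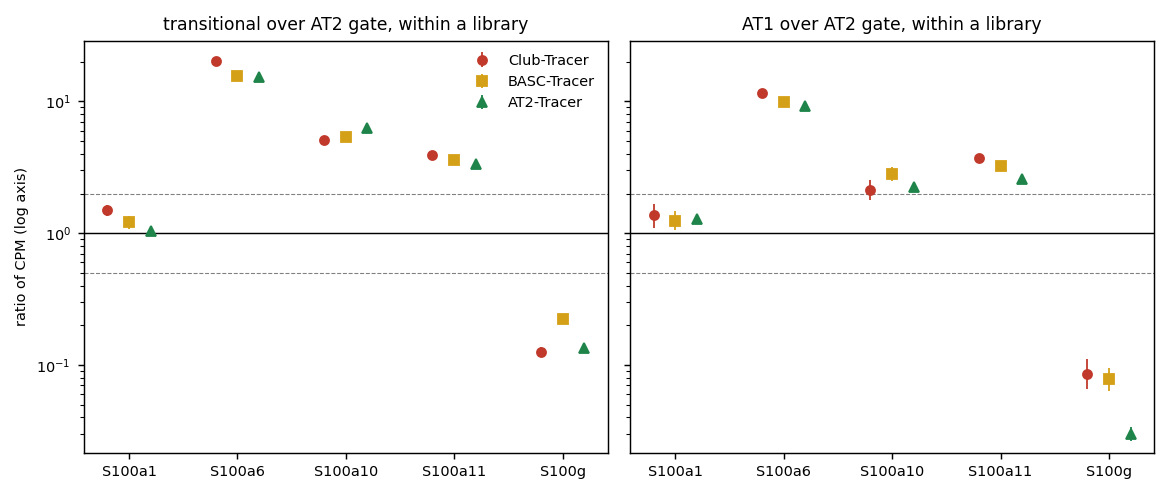
Ratios of CPM (log axis) of 5 S100 genes for the transitional gate over the AT2 gate (left) and the AT1 gate over the AT2 gate (right), 1 point per library with its 95% interval; dashed lines mark 2-fold. S100a6 lies at 15.2 to 20.2 on the left and 9.24 to 11.5 on the right, and S100g lies below the lower dashed line in all 6 comparisons.

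Between the transitional and AT1 gates no member was 2-fold apart in all 3 libraries, where 2.80% of 3290 genes were higher in the transitional gate and 5.47% lower. S100a6 was higher in the transitional gate by ratios of 1.75, 1.56 and 1.65, and S100a11 by 1.05, 1.12 and 1.30. S100a10 was higher by ratios of 2.39, 1.92 and 2.80, and S100g by 1.45, 2.86 and 4.52. Without the highest barcodes the BASC-Tracer ratio of S100a10 was 2.03, so that 1 member was counted, and that of S100g was 10.7. Without the BASC-Tracer library 1 of 5 members (S100a10) was counted, and without the Club-Tracer library also 1 (S100g).

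Inside the AT2 gate, S100a6 was unevenly spread over barcodes. The median barcode had 0, 0.385 and 0.555 UMIs of S100a6 per 10000. The highest 10% of barcodes, by their count, held 75.6%, 87.1% and 81.4% of the gate's S100a6 UMIs. In the AT2-Tracer transitional gate the median barcode had 94.2 per 10000 and the highest 10% held 32.7%.

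The AT2 gate was then split, after the data had been seen, by each barcode's UMIs of the transitional list, which holds no S100 gene. From the lowest bin (under 10 per 10000) through the next bins to the highest (40 to 80), S100a6 went from 113 through 260 and 896 to 2230 CPM in the Club-Tracer library. It went from 21.8 through 497 and 939 to 2231 CPM in the BASC-Tracer library and from 73.0 through 332 and 1394 to 3492 CPM in the AT2-Tracer library. Each step was upward in every library.

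S100a10 went from 80.4 to 413, from 97.9 to 372 and from 110 to 472 CPM between the outer bins, and S100a11 from 790 to 1600, from 841 to 1482 and from 975 to 2149 CPM. S100g did not drop alike: it went from 1192 to 1526, from 1637 to 1277 and from 1887 to 1353 CPM. The highest bin held 20, 48 and 156 barcodes, and their depth was lower than in the lowest bin, with medians of 19000, 1428 and 6149.5 UMIs against 23324.5, 28622 and 15236. The part of depth, and of barcodes that hold 2 cells, was not tested.

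The same split of the club gate gave a like pattern outside the alveolus. In the Club-Tracer library S100a6 went from 54.3 CPM in the lowest bin (350 barcodes) to 2682 CPM at 80 or more (37 barcodes), with every step upward. S100a10 went from 5.00 to 148 CPM and S100a11 from 1431 to 3183 CPM, while S100g was at 122 and 132 CPM. In the ciliated gate of that library S100a6 went from 388 to 4159 CPM between the bins under 10 and 40 to 80, and S100a10 from 175 to 342 CPM.

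**Figure D3:**
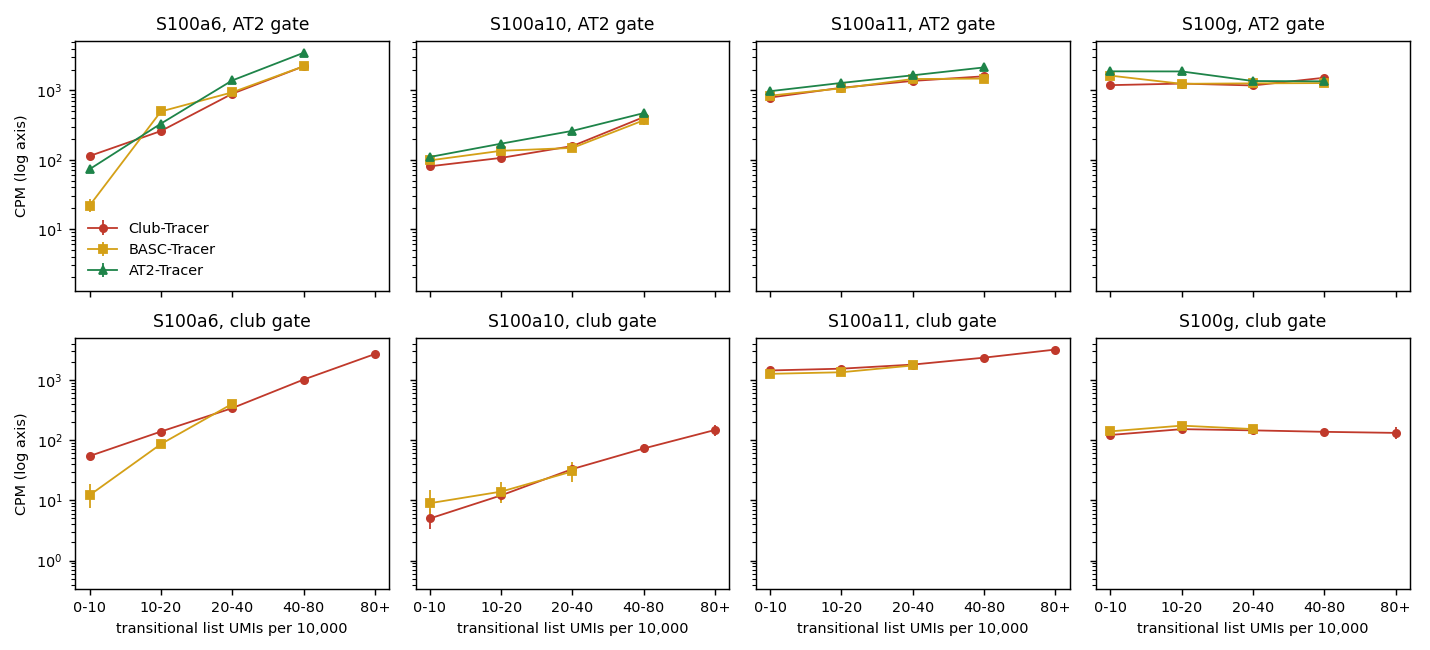
CPM (log axis) of 4 S100 genes in barcodes of the AT2 gate (top) and the club gate (bottom), split by UMIs of the transitional marker list per 10000, with lines for libraries and bars for 95% Poisson intervals. S100a6 goes up at every step, from 73.0 to 3492 CPM in the AT2 gate of the AT2-Tracer library, while S100g stays between 1179 and 1887 CPM in the AT2 gate.

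The promoters of S100a6 and S100a11, the 2 most abundant members of the transitional gate, are shown because these genes were high together. The sequences are from RefSeq, build GRCm38.p6, 5′ to 3′, from 250 bases before the start up to the annotated exon, and 7 of the 8 members had an entry. Capitals mark matches on either strand to AP-1 (TGANTCA), C/EBP (TTGCNNAA), PU.1 (GAGGAA), TEAD (GGAATG), GC box (GGGCGG) or TATA box (TATAAA) letters.
S100a6, chr3:90612644-90612881, plus strand: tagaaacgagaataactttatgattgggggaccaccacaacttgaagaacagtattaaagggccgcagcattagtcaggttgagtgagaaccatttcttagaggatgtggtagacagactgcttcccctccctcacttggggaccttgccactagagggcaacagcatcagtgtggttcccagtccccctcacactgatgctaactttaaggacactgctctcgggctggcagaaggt
S100a11, chr3:93520246-93520487, plus strand: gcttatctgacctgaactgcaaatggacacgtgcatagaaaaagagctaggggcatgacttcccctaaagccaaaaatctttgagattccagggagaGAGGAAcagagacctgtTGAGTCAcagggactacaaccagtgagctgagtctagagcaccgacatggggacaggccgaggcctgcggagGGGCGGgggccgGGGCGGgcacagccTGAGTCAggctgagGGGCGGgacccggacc
The S100a11 window holds 2 AP-1 matches, 3 GC boxes and 1 PU.1 match, and the S100a6 window none of the 6 motifs. Of 32851 promoters of the same length, 6.75% hold the AP-1 letters, 9.56% C/EBP, 23.3% PU.1, 12.6% TEAD, 32.7% the GC box and 12.4% the TATA box. A match is a description of the letters, not of a bound site.

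S100g was highest in the AT2 gate, at 1226, 1416 and 1722 CPM. The transitional gate followed at 154, 316 and 233 CPM and the club gate at 139 and 158 CPM, and these 2 neighbours overlap. The AT1 gate came next at 106, 110 and 51.5 CPM. After thinning each barcode to 1500 UMIs, 63.0%, 70.6% and 74.3% of AT2-gate barcodes held an S100g UMI, as against 92.9%, 84.0% and 91.2% unthinned.

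In the AT1 gate of the AT2-Tracer library 4.76% of thinned barcodes held one (exact 95% interval 3.26 to 6.69, 15.1% unthinned), and in the C1q macrophage gate, which should lack the gene, 4.09% (2.78 to 5.79, 9.23% unthinned). Median depths there were 5178 and 6419 UMIs. The thinned intervals overlap, so the shares could not be told apart at 1500 UMIs per barcode. The sums held 264 UMIs, 51.5 CPM, in that AT1 gate and 94 UMIs, 16.5 CPM, in the C1q macrophage gate. S100g was 11.6-, 12.9- and 33.4-fold lower in the AT1 gate than in the AT2 gate.

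The AT1 levels of S100g rested on few barcodes. A single barcode held 29 of 60, 83 of 101 and 31 of 264 of its UMIs. Without the highest barcodes the AT1 gate held 58.7, 19.9 and 45.6 CPM of S100g, which was 20.0-, 69.9- and 37.5-fold below the AT2 gate. The transitional gate, where single barcodes held 189 of 503, 204 of 617 and 428 of 1914 UMIs, then held 97.1, 213 and 181 CPM. Within the transitional gate S100g went up with the AT2 marker list, from 15.2 to 280 CPM in the Club-Tracer library and from 39.7 to 627 CPM in the AT2-Tracer library between barcodes with under 10 and with 50 to 500 list UMIs per 10000.

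In the airway the club gate had the lowest mean over libraries of S100a6 and S100a10 among the 10 classes, at 324 and 283 CPM for S100a6 and 24.96 and 25.48 CPM for S100a10. For S100a6 the C1q macrophage gate of the BASC-Tracer library, at 307 CPM, lay between these values. A single barcode held 540 of the 1388 S100a6 UMIs of the BASC-Tracer club gate. Without the highest barcode of each sum that gate was at 175 CPM and the C1q macrophage gate at 138 CPM. Against the AT2 gate, no member was 2-fold higher and 2 of 5 were 2-fold lower, S100a10 (4.82- and 5.30-fold) and S100g (8.81- and 8.94-fold). S100a6 was past 2-fold lower in the BASC-Tracer library alone without the highest barcodes (log2 -1.31). Of 2459 genes counted there, 3.62% were higher and 11.2% lower, and the median log2 ratio of all genes was -0.47. S100a11 was higher in the club gate by ratios of 1.60 and 1.39, and past 2-fold in the Club-Tracer library (log2 1.13) when centred on the median gene and (1.07) when scaled without secretoglobins, surfactant proteins and mitochondrial genes.

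Ciliated barcodes were the highest class for S100a1. It stood at 973 and 768 CPM in the ciliated gate and at 192 and 162 CPM in the club gate, ratios of 5.06 and 4.75. S100a6 stood at 2747 and 1527 CPM, S100a10 at 275 and 184 CPM and S100a11 at 4566 and 3928 CPM. Their ratios to the club gate were 8.49 and 5.40 for S100a6, 11.01 and 7.22 for S100a10, and 2.70 and 2.64 for S100a11. S100g was 24.7- and 10.49-fold lower, at 5.64 and 15.1 CPM, and 1 barcode held 15 of the 16 UMIs behind the latter.

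So 4 of 5 members were higher and 1 lower in the ciliated gate, but 45.5% of 3691 genes were higher and 4.99% lower there, and the median gene differed by a log2 of 0.96. Centred on that median, S100a11 was no longer 2-fold apart (log2 0.43 and 0.44), nor with the scaling named above (0.82 and 0.83). The club marker list stood at medians of 107 and 90.3 UMIs per 10000 in the ciliated gate, near the 122 and 120 of the ciliated list, and the part of free club RNA was not tested.

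In the basal gate S100a6 stood at 7112 CPM and S100a10 at 755 CPM, which were 22.0-fold (21.3 to 22.7) and 30.3-fold (27.3 to 33.7) above the club gate of the same library. S100a1 was 2.15-fold lower at 89.5 CPM and S100g 12.8-fold lower at 10.9 CPM. That made 2 of 5 members higher and 2 lower, against 38.1% and 4.32% of 3170 genes. All 116 basal barcodes held an S100a6 UMI, and 98.3% did after thinning, as against 20.8% of club barcodes. The median basal barcode held 22.4 UMIs per 10000 of the basal list beside 57.1 of the club list and 49.7 of the AT2 list. The difference of S100a1 was under 2-fold with equal weight for each barcode (log2 -0.96) or a pseudocount of 20 CPM (-0.95).

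The upper airway secretory gate held 1673 CPM of S100a6 and 95.1 CPM of S100a10, 5.17- and 3.81-fold above the club gate, and 38.8 CPM of S100g, 3.59-fold below it (5.78-fold without the highest barcodes). Of the 5 members counted 2 were higher and 1 lower, where 3.58% of 2010 genes were higher and 2.24% lower. With equal weight for each barcode the difference of S100a10 was under 2-fold (log2 0.90).

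S100a11 was the most even member over epithelial classes. It ran from 4247 CPM in the ciliated gate (mean of the libraries) through 4149 in the transitional, 3612 in the AT1, 2899 in the basal, 1872 in the upper airway and 1590 in the club gate to 1154 CPM in the AT2 gate. Ciliated and transitional gates, and transitional and AT1 gates, overlap in their library values. Across all classes the mean of S100a10 ran from 852 CPM in the transitional gate to 25.2 in the club gate. The transitional range of 611 to 1217 CPM overlaps the alveolar macrophage value of 819 and the basal value of 755. The basal value is from the Club-Tracer library, where the transitional gate was lower, at 611 CPM.

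Of the 10 classes, the dendritic gate had the highest level of S100a4. It stood at 814 CPM there (748 to 884), at 375 CPM in the C1q macrophage gate and at 155 CPM in the alveolar macrophage gate of the AT2-Tracer library. It stood at 7.44 CPM in the AT2 gate, and no epithelial gate of any library passed 39.3 CPM, its level in the AT2-Tracer transitional gate. After thinning, 48.3% of dendritic barcodes (35.0 to 61.8), 14.9% of C1q macrophage barcodes and 0.744% of AT2-gate barcodes held a UMI, as against 65.0%, 26.8% and 7.67% unthinned. Median depths were 12108.5, 6419 and 15611 UMIs.

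Alveolar macrophages, the resident phagocytes of the airspace, had 4 of 7 counted members at least 2-fold above the AT2 gate of their library, where 22.9% of 3676 genes were, and 1 below it, where 22.2% were. S100a4 and S100a8 reached 50 CPM in the macrophage sum alone and S100g in the AT2 sum alone. The limit let these be counted only as higher in that sum. S100a1 was at 471 CPM (ratio 2.23), S100a4 was higher by a ratio of 20.8, S100a10 was at 819 CPM (ratio 4.21), and S100g was 88.3-fold lower. S100a8 had the largest ratio of the members, 421 (333 to 540). S100a6 was 1.60-fold lower and S100a11 1.24-fold higher. The difference of S100a1 was under 2-fold (log2 0.94) without secretoglobins, surfactant proteins and mitochondrial genes in the scaling.

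The C1q macrophage gate differed from the alveolar macrophage gate in 4 of 6 counted members. S100a4 was 2.42-fold higher, where 11.3% of 3159 genes were 2-fold higher. S100a1 was 3.16-fold, S100a11 6.08-fold and S100a8 14.5-fold lower, where 9.84% were 2-fold lower. At 272 CPM in the AT2-Tracer and 208 CPM in the BASC-Tracer library, S100a11 was lowest in this gate of all 10 classes. The difference of S100a4 was under 2-fold with equal weight for each barcode (log2 0.62).

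Dendritic barcodes (60) had S100a4 2.17-fold, S100a6 2.05-fold and S100a11 3.92-fold above the C1q macrophage gate, 3 of 6 counted members, where 11.8% of 3202 genes were higher. S100a8 was the 1 member lower, with a single UMI and a ratio of 0.0196 (0.000495 to 0.110), where 17.6% of genes were lower. S100a6 was under 2-fold with Scrublet doublets removed (log2 0.81) and without the highest barcodes (0.84).

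S100a8 and S100a9, which pair as calprotectin, did not go together in these libraries. The AT2-Tracer library held 10198 UMIs of S100a8 in 1089 barcodes, and 87.3% of them were in the 844 alveolar macrophage barcodes. There 772 barcodes, 91.5%, held S100a8, and 67.1% (63.8 to 70.3) did after thinning. The same 844 barcodes held 1 UMI of S100a9, 0.12 CPM against 1064 CPM of S100a8.

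S100a9 could be read in this library, since 1 barcode of the neutrophil gate held 128 UMIs of it and 106 of S100a8 among 2381 UMIs. In all, 249 S100a9 UMIs lay in 7 barcodes. Of these, 2 barcodes of the transitional gate held 52 and 44 UMIs with no S100a8, and without them S100a9 was at 0 CPM in that gate rather than 11.7 CPM. Those 2 barcodes held 533 and 550 UMIs of the transitional list and none of the neutrophil list.

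In the epithelial and dendritic gates S100a8 was near 0. In the AT2 gate of the AT2-Tracer library 47 barcodes, 2.67% (0.310% thinned), held a UMI, at 2.53 CPM, and the AT1 and dendritic gates had 1.17 and 1.44 CPM. The C1q macrophage gate lay above that at 73.5 CPM, with 16.8% of barcodes (5.46% thinned). Apart from the classes, 436 S100a8 UMIs lay in 76 barcodes of that library in no gate and 229 in 42 barcodes in several gates. Alveolar macrophage, C1q macrophage and AT2 gates had median depths of 9710, 6419 and 15611 UMIs. In both other libraries the AT2, AT1, transitional, club and ciliated gates had no S100a8 UMI, which allows up to 0.295 CPM in the Club-Tracer AT2 gate, counting error only. The few alveolar macrophage barcodes of these libraries, 5 and 7, held 16 of the 26 and 64 of the 81 S100a8 UMIs and no S100a9.

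**Figure D4:**
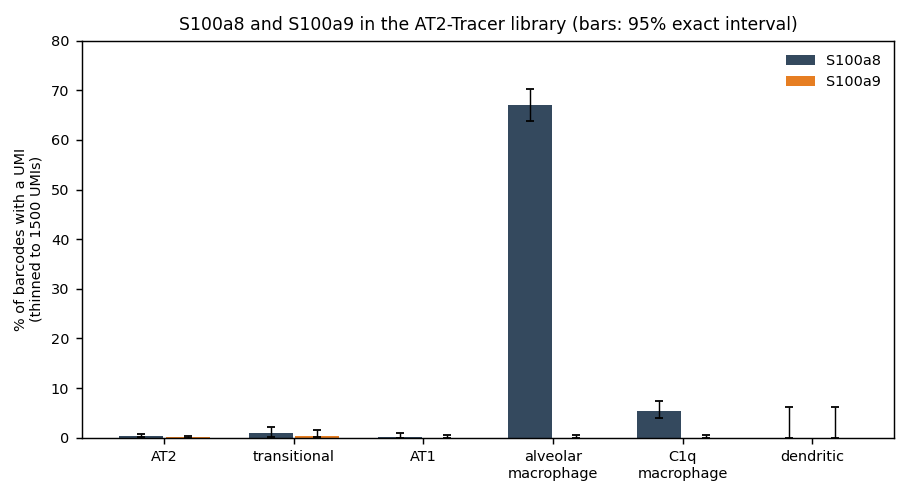
Percent of barcodes with a UMI of S100a8 (dark) or S100a9 (orange) after thinning to 1500 UMIs, by gate, in the AT2-Tracer library, with exact 95% intervals. S100a8 reaches 67.1% in the alveolar macrophage gate and 5.46% in the C1q macrophage gate, and S100a9 is at most 0.434% in the 6 gates.

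The promoters of the pair are shown because their levels differed so widely in 1 class, from the same source and with the same capitals as above. The S100a8 window is given up to the first annotated exon base and, apart, as the 20 bases around the matches next to the start.
S100a8, chr3:90668821-90668977, plus strand: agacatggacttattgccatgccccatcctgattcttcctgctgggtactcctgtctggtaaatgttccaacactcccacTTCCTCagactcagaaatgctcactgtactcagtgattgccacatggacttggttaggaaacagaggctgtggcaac
S100a8, chr3:90669031-90669050, plus strand: agctTTCCTCTATAAAagca
S100a9, chr3:90695722-90695971, minus strand: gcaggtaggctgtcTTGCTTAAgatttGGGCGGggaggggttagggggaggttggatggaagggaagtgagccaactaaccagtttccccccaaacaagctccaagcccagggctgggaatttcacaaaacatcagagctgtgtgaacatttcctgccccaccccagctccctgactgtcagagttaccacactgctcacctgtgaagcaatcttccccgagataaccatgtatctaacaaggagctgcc
The S100a8 window holds 2 PU.1 matches, the second directly before a TATA box 30 to 25 bases ahead of the RefSeq start. The GENCODE M21 gene begins 93 bases ahead of that start, so this second match and the TATA box lie inside it. Bases just after the RefSeq start were not found in a GENCODE M21 transcript of S100a8, unlike those of the other genes shown. The S100a9 window holds a C/EBP match and a GC box and no PU.1 or TATA letters. As a measured companion, Spi1, which encodes PU.1, stood at 393 CPM in the alveolar macrophage, 446 in the C1q macrophage and 367 CPM in the dendritic gate, and Cebpb, a C/EBP factor, at 1615, 1104 and 110 CPM.

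Between libraries no counted member was 2-fold apart in the AT2, club and ciliated gates. In the AT1 and transitional gates S100g alone was, in 1 pair of libraries each. In the AT2 gate all 5 counted members were lowest in the Club-Tracer library, next in the BASC-Tracer library and highest in the AT2-Tracer library. The AT2-Tracer to Club-Tracer ratios were 1.74 for S100a6 (1.68 to 1.80), 1.62 for S100a1, 1.62 for S100a10, 1.40 for S100g and 1.27 for S100a11. None reached 2-fold, where 5.72% of 2902 genes did, and none did against the BASC-Tracer library (1.75%) or between the BASC-Tracer and Club-Tracer libraries (1.28%). For AT2-Tracer over Club-Tracer the median log2 ratio was 0.14 over all genes and 0.67 over the members. For S100a11 the BASC-Tracer to Club-Tracer ratio was 1.02, with an interval that includes 1 (0.988 to 1.04). With gate cut-offs 2 times as high S100a6 passed 2-fold, at a log2 of 1.03 over the Club-Tracer and 1.19 over the BASC-Tracer library, and the Club-Tracer library was then above the BASC-Tracer library. Median depths of the gate were 25364, 19888 and 15611 UMIs in the opposite order, and their part was not tested.

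In the AT1 gate S100g was 2.14-fold lower in the AT2-Tracer than in the BASC-Tracer library. It was the 1 of 5 members counted as apart, where 1.23% of 3833 genes were. Against the Club-Tracer library S100g was 2.05-fold lower, just under the limit on the log2 scale, which 9.07% of genes passed. A single barcode held 29 of the 60 Club-Tracer UMIs, and without the highest barcodes S100g was 1.29-fold lower (log2 -0.33). Between the BASC-Tracer and Club-Tracer AT1 gates no member was 2-fold apart, where 6.69% of genes were, and S100g was (log2 -1.36) without the highest barcodes. The difference between the AT2-Tracer and BASC-Tracer libraries rests on the 1 BASC-Tracer barcode with 83 of the 101 S100g UMIs. Without the highest barcode of each sum the direction turned, with 45.6 CPM in the AT2-Tracer and 19.9 CPM in the BASC-Tracer library, both below the 50 CPM needed to be counted. With equal weight for each barcode the log2 ratio was -0.49. In the transitional gate S100g was 2.05-fold higher in the BASC-Tracer than in the Club-Tracer library, where 2.50% of 3634 genes were 2-fold apart, and under the limit when centred (log2 0.92). S100a10 was 1.99-fold higher in the AT2-Tracer than in the Club-Tracer library, below the limit that 8.03% of 3647 genes passed (log2 0.99, and 1.06 without the highest barcodes), and no member passed it between the AT2-Tracer and BASC-Tracer libraries, where 3.68% did. In the club and ciliated gates no counted member was 2-fold apart between the BASC-Tracer and Club-Tracer libraries, where 0.555% of 1983 and 0.684% of 4091 genes were, and the most different was S100a6 in the ciliated gate, 1.80-fold lower in the BASC-Tracer library.

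The C1q macrophage gate had the most members 2-fold apart between libraries. S100a4 stood at 48.4 CPM (35.7 to 64.2) in its 90 BASC-Tracer barcodes and at 375 CPM (359 to 391) in its 758 AT2-Tracer barcodes, S100a6 at 307 and 882 CPM, and S100a8 at 14.1 and 73.5 CPM. The ratios were 7.74 (5.82 to 10.5), 2.88 (2.56 to 3.24) and 5.21 (3.07 to 9.61). Of 6 counted members 3 were 2-fold apart, all higher in the AT2-Tracer library, where 8.54% of 3162 genes were apart. S100a4 and S100a8 reached 50 CPM in the AT2-Tracer sum alone, so the limit let them be counted only as higher there. With gate cut-offs 2 times as high the count was again 3, but of S100a4, S100a6 and S100a11 (log2 1.67 for S100a11), since S100a8 was then below 50 CPM in both libraries and not counted. A single BASC-Tracer barcode held 170 of the 304 S100a6 UMIs and 99 of the 206 S100a11 UMIs. Without the highest barcode of each sum S100a6 was at 138 and 853 CPM and S100a11 at 111 and 267 CPM, and 4 members were 2-fold apart, S100a11 (log2 1.23) being the fourth. The gate did not hold the same barcodes in both libraries: the median of the monocyte list was 16.5 UMIs per 10000 in the BASC-Tracer and 2.4 in the AT2-Tracer library, and that of the alveolar macrophage list 19.3 and 9.2. Within the AT2-Tracer gate S100a4 went from 523 through 344 to 165 CPM and S100a6 from 1177 through 777 to 471 CPM as the alveolar macrophage list went from under 5 through 5 to 20 to 20 to 100 UMIs per 10000. S100a8 did not follow that order, at 87.3, 35.9 and 110 CPM. The part of these lists in the difference was not tested.

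**Figure D5:**
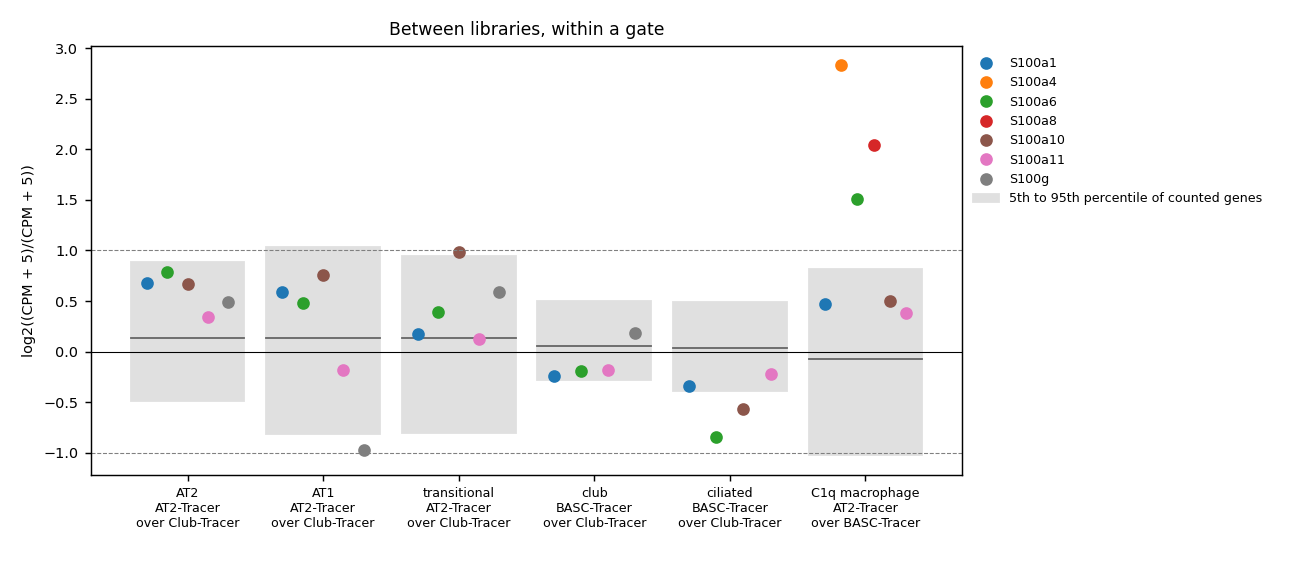
Log2 ratios between libraries within 6 gates, with a point for each counted S100 gene, a grey box from the 5th to the 95th percentile of all counted genes and a line at their median; dashed lines mark 2-fold. In the C1q macrophage gate S100a4, S100a6 and S100a8 lie above the upper dashed line, and in the other 5 comparisons plotted no member passes 2-fold. The pairs of libraries in which S100g passed 2-fold, in the AT1 and transitional gates, are not plotted.

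Of the other S100 genes, 9 were in the tables and 3 reached 50 CPM in a class. S100a14 stood at 46.8, 31.4 and 54.4 CPM in the AT2 gate and at 314, 414 and 571 CPM in the transitional gate, ratios of 6.70, 13.2 and 10.5, and at 317 CPM in the basal gate. S100a16 was higher in the transitional than in the AT2 gate by ratios of 2.62, 2.88 and 2.98, and was at 283 CPM in the basal gate. Both were near 0 in the alveolar macrophage gate, at 3.95 and 4.42 CPM. S100a13, whose gene lies head to head with S100a1, was highest in the AT1 gate of the AT2-Tracer library at 286 CPM. S100b, named after its values were seen, stayed below 50 CPM but was found in the ciliated gate, at 39.1 and 34.0 CPM, and not above 3.34 CPM in any other.

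Known partners of S100 proteins came from a list of 28 genes, of which 20 reached 50 CPM in a class. Between the transitional and AT2 gates 7 of 18 counted partners were higher in all 3 libraries and 1 was lower, where 10.0% of all 3076 genes were higher and 4.52% lower. The 7 were the annexins Anxa1, Anxa2, Anxa5 and Anxa11, the giant scaffold Ahnak that S100a10 and annexin A2 bind, the non-muscle myosin heavy chain Myh9 that S100a4 binds, and tropomyosin Tpm1. Anxa2 stood at 623, 531 and 503 CPM in the AT2 gate and at 1812, 1955 and 2361 CPM in the transitional gate, ratios of 2.91, 3.68 and 4.69. The lower partner was Cd36, a fatty acid receptor, at ratios of 0.248, 0.295 and 0.162.

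In the AT1 gate 5 of 18 partners were higher than in the AT2 gate, where 13.3% of 3114 genes were, and 1 was lower, where 3.66% were. The lower partner was again Cd36, at ratios of 0.197, 0.103 and 0.147, and the 5 were Anxa1, Anxa5, Ahnak, Myh9 and Ager. Ager, the receptor RAGE that S100 proteins bind, was higher by ratios of 10.3, 8.33 and 6.96. Ager did not share the S100a6 pattern in the transitional gate, where it stood at 695, 579 and 1558 CPM against 7227, 8166 and 10170 CPM in the AT1 gate. The Pearson r of log2(CPM + 5) over the 19 sums, which share libraries and depth, was computed for 9 pairs. It was 0.90 for S100a11 and Anxa2, 0.79 for S100a6 and Anxa2, 0.75 for S100a11 and Anxa1, 0.62 for S100a1 and S100a13, 0.60 for S100a10 and Ahnak, 0.60 for S100a6 and Cacybp, 0.44 for S100a10 and Anxa2, 0.42 for S100a4 and Myh9 and -0.39 for S100a8 and Cd36. S100a10 and Anxa2 parted in the C1q macrophage gate of the BASC-Tracer library, with 470 CPM of S100a10 and 132 CPM of Anxa2.

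The genes most like each member over the 19 sums were taken from 6367 genes by Pearson r, as a description. For S100a1 they were Plaat3 (0.93), Rmdn1 (0.89) and Tmem138 (0.89), for S100a4 Cd52 (0.94), Cd80 (0.94) and Irf5 (0.94), and for S100a6 Rbm42 (0.96), Sec11a (0.93) and Bub3 (0.90). For S100a8 they were F7 (0.99), Olr1 (0.98) and Emilin1 (0.98), all highest in the alveolar macrophage gate. These values rest largely on 1 sum, since S100a8 was at 1064 CPM there and at most 73.5 CPM in any other. S100a10 went most with Cfl1, Lgals3 and Eno1 (each 0.93), S100a11 with Lsr (0.93), F11r (0.93) and Krt19 (0.92), and S100g with the lipid enzyme Scd1 (0.94), Ggcx (0.93) and Slc26a9 (0.93). Lgals3 and Krt19 are in the transitional list that set the gate. The likeness of S100a9, to Myl7 (0.78), Ntm (0.73) and Tagln (0.73), rests on the sum that holds its 2 transitional barcodes.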

How the data were processed

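Droplet single-cell RNA libraries were made with 5′ chemistry, per the labels' protocols. The deposited matrices hold raw counts, UMIs per gene and barcode. Cell Ranger made them, per the file headers, and version 6.1.1 and build mm10 come from the submitters' processing notes. The sources used here do not name the annotation release. All values were computed from these counts with Python 3.11.15, numpy 2.4.6, scipy 1.17.1, pandas 2.3.3, scanpy 1.11.5 and matplotlib 3.10.9.

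Barcodes with fewer than 500 genes (1872, 959 and 2686, libraries ordered as in the report) and then with more than 15% mitochondrial UMIs (236, 78 and 339) were left out. A barcode passed a gate with at least 5 UMIs from at least 2 genes of a marker list and a list level at or above its cut-off. Upper airway gates outranked club, and airway gates outranked transitional. Barcodes in several gates (164, 48 and 219) or none (726, 428 and 933) entered no class, and no other step removed doublets. Sums needed 50 barcodes and were scaled to all their UMIs (CPM), so depth is that of the sum. Ratios carry exact conditional 95% intervals and shares exact Clopper-Pearson intervals; a count of 0 allows 3 counts. The scripts were tested on simulated data.

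Named genes were the 8 members, other S100 genes and partners that reached 50 CPM in a class, and the 3 most like genes of each member. That ranking skipped genes of mitochondria, ribosomal proteins, hemoglobin, immunoglobulins and T cell receptors, predicted and Rik genes, and genes linked to sex. S100b was named outside this rule, after its values were seen. The members and lists were chosen with earlier results of these data known. Alternatives varied the scaling, gates, filters, doublets, weighting, pseudocount, limits, libraries and single barcodes. Gene positions are from GENCODE M21 (GRCm38).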

Additional observations from a re-analysis of the deposited data

How the results depend on the processing

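No ratio that was at least 2-fold changed its sign under any of 13 other settings, except that of S100g between the AT2-Tracer and BASC-Tracer AT1 gates, whose sums fell below 50 CPM without the highest barcodes. Of 67 such ratios, 61 stayed 2-fold when scaled without secretoglobins, surfactant proteins and mitochondrial genes, 62 when centred on the median gene, 63 with a pseudocount of 20 CPM, 66 with Scrublet doublets removed 59 of 65 with equal weight for each barcode and 65 of 66 without the highest barcodes. With gate cut-offs 2 times as high only 41 could be computed, and all 41 stayed 2-fold. Of the recomputed counts of members 2-fold apart, 265 stayed within 1.5 times of the reported count and 29 did not. Those 29 are the following, and apart from the settings that change the limit or leave out a library their cause was not tested. For AT2-Tracer over BASC-Tracer in the AT1 gate the count went from 1 to 0 with equal weight for each barcode, with a pseudocount of 20 CPM and without the highest barcodes. Without the highest barcodes it also went from 0 to 1 for BASC-Tracer over Club-Tracer in the AT1 gate, for AT2-Tracer over Club-Tracer in the transitional gate and between the transitional and AT1 gates. For AT2-Tracer over Club-Tracer in the AT1 gate it went from 0 to 3 at 1.5-fold, and to 1 with doublets removed, centring, a floor of 1000 genes or the other scaling. In the AT2 gate it went from 0 to 1 (over BASC-Tracer) and 3 (over Club-Tracer) at 1.5-fold, and to 1 in both with higher gate cut-offs. In the ciliated gate it went from 0 to 1 at 1.5-fold. Between the transitional and AT1 gates it went from 0 to 2 at 1.5-fold and with higher gate cut-offs, and to 1 with equal weight for each barcode. Leaving out each library in turn gave 0 to 1. With higher gate cut-offs the count covered fewer libraries. The 69 BASC-Tracer transitional barcodes, with a median of 155 list UMIs per 10000, then fell below 50, as the cut-off was 2 times 80. At the reported gates the AT2-Tracer library taken by itself had 2 members higher in the transitional gate. In the transitional gate, AT2-Tracer over BASC-Tracer went from 0 to 2 at 1.5-fold and 1 with a limit of 20 CPM. There AT2-Tracer over Club-Tracer went from 0 to 2 at 1.5-fold and with equal weight, and to 1 with a limit of 20 CPM, while BASC-Tracer over Club-Tracer went from 1 to 0 with centring, a pseudocount of 20 CPM or the other scaling. No paired analysis was possible because each lineage has 1 library. A sum with no UMI of a gene still allows 3 counts, which is 0.295 CPM in the Club-Tracer AT2 gate and more in smaller sums.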
